A study of Mus musculus with 4 samples.

Results

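Cluster 35: *Dmbx1*/*Cntnap5b* is a cluster of inhibitory neurons of the mouse caudal hindbrain, found by single-nucleus RNA sequencing. Its members were the nuclei that the authors kept after quality control and annotated to that cluster. There were 189 of them, which was 1.51% of the 12539 neuronal nuclei and 0.479% of all 39461 nuclei kept. It was the neuronal cluster with the rank of 5 by size among 134. The nuclei held 2373027 unique molecular identifiers (UMIs, each standing for 1 captured RNA molecule), with a median of 11288 per nucleus (range, 1890 to 34017) and 4310 genes. The median of the 12350 other neurons was 8655 UMIs.

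The nuclei came from the portion of hindbrain that holds the area postrema and the nucleus of the solitary tract, from adult mice of both sexes aged 12 to 20 weeks. Mice were given 3 mg/kg of clozapine *N*-oxide (CNO), the ligand of the designer receptors, and killed 1 h later without access to food. In AgRP-Gq;POMC-Gi mice, Cre made under *Agrp* (AgRP-IRES-Cre+/-) switched on the excitatory receptor encoded by the hM3DGq fl/- allele, and Dre made under *Pomc* (POMC-Dre+/-) switched on the inhibitory receptor encoded by the hM4DGi fl/- allele. Control mice received CNO too and carried both receptor alleles without either recombinase according to the methods, whereas the labels give their genotype as WT. Each group had 2 libraries, which the labels describe as 2 mice per group, with samples of a condition pooled, and the animals behind a given library are not given. The source data of the study list males and females that add up to more mice per group than the labels do, so how many animals a library holds is unclear. P-values therefore measure the spread between libraries. Cluster 35 had 46 and 37 nuclei in control replicates 1 and 2 and 59 and 47 in AgRP-Gq;POMC-Gi replicates 1 and 2. Values of 4 libraries are given in that order throughout.

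Some features set libraries of the same group apart, and not all were balanced between the groups. *Xist*, made from the inactive X chromosome of females, was at 6.95 CPM (a gene's UMIs scaled to a library total of 1e6 UMIs, after summing over nuclei) in cluster 35 of AgRP-Gq;POMC-Gi replicate 2 and at 181 to 333 CPM in the other libraries. *Ttr*, the transthyretin gene of the choroid plexus, was at 0 and 2.66 CPM in replicate 1 of the groups and at 966 and 545 CPM in replicate 2, with 1.52 and 7.64 against 1004 and 581 CPM in other neurons. Across all kept nuclei 168 barcodes occurred in more than 1 library, and 2 nuclei of cluster 35 carried such a barcode. *Dmbx1* was at 40.7 CPM without them, against 40.4 CPM with them.

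*Dmbx1* encodes a paired-like homeodomain transcription factor of the developing mid- and hindbrain, and mice that lack it are lean and respond poorly to AgRP. *Cntnap5b* encodes a contactin-associated protein of the neurexin superfamily, a membrane protein of neuronal cell adhesion. Inhibitory interneurons of the dorsal hindbrain and spinal cord arise from progenitors that go on to express *Pax2*, *Pax8* and *Lhx1*, and they release GABA, glycine or both.

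*Dmbx1* (ENSMUSG00000028707, GRCm38 chr4:115915119-115939926, minus strand) had the highest ratio to other neurons among genes detected in 25% or more of the nuclei. Its level was 62.9, 43.1, 17.3 and 38.2 CPM in the 4 libraries, a mean of 40.4 ± 18.7 (SD, n = 4), against 0.692 ± 0.493 in other neurons. All 4 libraries of the cluster stood above all 4 libraries of other neurons. The UMIs behind these values were 38, 19, 13 and 22. A *Dmbx1* UMI was found in 61 of 189 nuclei (32.3%, exact 95% interval 25.7 to 39.4), in 0.534% of other neurons and in 0.0238% of oligodendrocytes, whose median depth was 2460 UMIs. With nuclei of at least 2000 UMIs thinned to that number, the shares were 5.32%, 0.115% and 0.0175%. Shallower nuclei were left out of this, namely 1 of cluster 35, 165 other neurons and 5416 of 16816 oligodendrocytes. Intervals cover counting error only.

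Of the 134 neuronal clusters, 115 had no *Dmbx1* UMI. Cluster 57: Adarb2/Ebf2 came after cluster 35 with 17.8 CPM (9.09 to 31.4), followed by cluster 173: Mecom/Oprk1 with 12.5 CPM (0 to 36.0 over its 40 nuclei). The library ranges of both overlapped that of cluster 35, so the order of these clusters was within their spread. Nevertheless, 48.0% of all neurons with a *Dmbx1* UMI lay in cluster 35.

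*Cntnap5b* (ENSMUSG00000067028, GRCm38 chr1:99772765-100485942, plus strand) was more widely expressed. It was at 708, 839, 1007 and 863 CPM in the 4 libraries of cluster 35 (854 ± 122, SD, n = 4) and at 445 ± 43.1 in other neurons, so the ranges did not overlap. A UMI was found in 88.9% of the nuclei and in 59.1% of other neurons, against 0.743% of oligodendrocytes. Cluster 35 ranked 12 for this gene. The clusters that ranked 1 to 5 lay above it without overlap, with cluster 70: Tfap2b/Cntnap5b highest at 2222 CPM (1961 to 2344). The neighbours in the order, cluster 65 with 861 CPM and cluster 185 with 836 CPM, overlapped it. The paralog *Cntnap5c* was at 450 ± 38.6 CPM against 276 in other neurons, and *Cntnap5a* at 1234 ± 167 CPM against 1184. The plot of both naming genes over all neuronal clusters shows that clusters with more *Cntnap5b* had no or little *Dmbx1*.

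**Figure D1:**
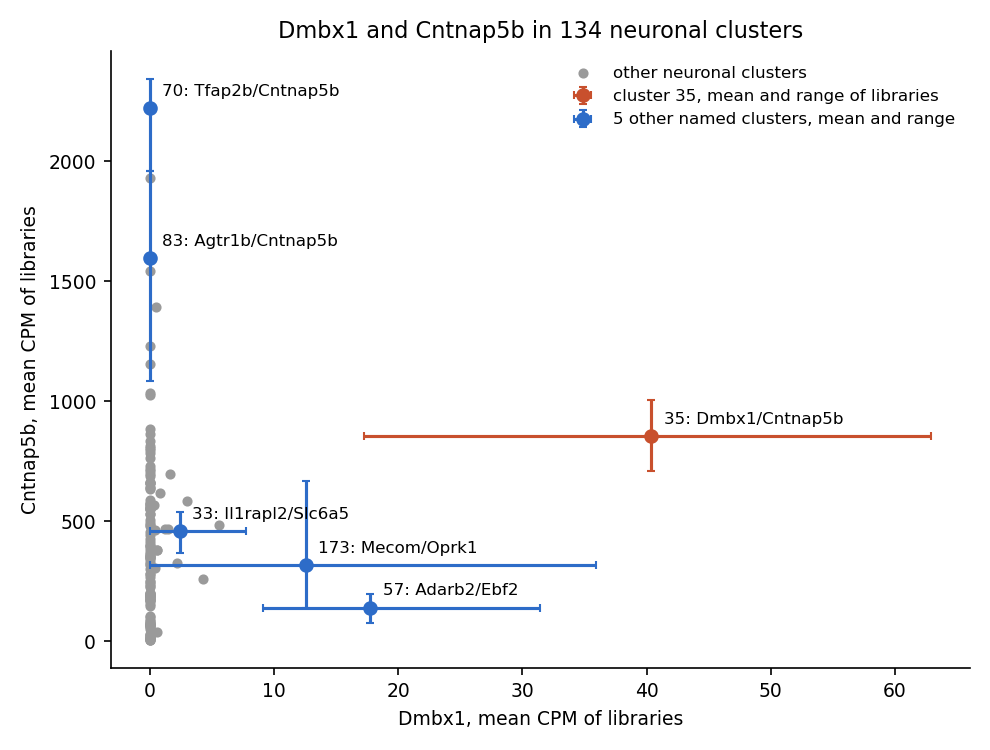
Mean level of *Dmbx1* (x axis, CPM) and *Cntnap5b* (y axis, CPM) in each of 134 neuronal clusters, with means over 4 libraries as points and bars from the lowest to the highest library for 6 clusters. Cluster 35 stands at 40.4 CPM of *Dmbx1* and 854 CPM of *Cntnap5b*, while clusters 70 and 83 hold more *Cntnap5b* at 0 CPM of *Dmbx1*.

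The 20 genes with the highest ratio to other neurons included 6 transcriptional regulators, *Dmbx1* among them, and 6 noncoding or predicted genes. Clusters were built from expression, so these ratios describe the cluster and carry no test. Ratios are given as log2 with 1 CPM added to both levels, among the 6502 genes detected in 25% or more of its nuclei, and the 20 ran from 4.61 for *Dmbx1* to 1.18 for *Olfm3*. All 20 were higher in 4 of 4 libraries, which their selection favoured, and of all 12502 genes detected in 5% or more of the nuclei, 13.5% were.

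Among transcriptional regulators, *Tox*, which encodes an HMG-box protein, was at 473, 546, 555 and 583 CPM (539 ± 46.9) against 125 ± 4.97 in other neurons. Its relative *Tox3* was at 94.3, 109, 85.1 and 116 CPM (101 ± 14.1) against 31.1 ± 7.63. *Zfhx3*, a zinc finger homeobox gene, was at 1227 ± 94.0 CPM against 471, with UMIs in 98.4% of nuclei. The paired-box genes *Pax8* (79.4 ± 15.5 against 23.5 CPM) and *Pax2* (167 ± 34.0 against 58.2 CPM) were in the list as well. In each of these 5 genes, the lowest library of cluster 35 stood above the highest library of other neurons.

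The list held 8 other protein-coding genes. *Htr2c*, the serotonin receptor 2C, was at 1709, 1671, 1768 and 1693 CPM (1710.3 ± 41.4) against 716 ± 66.9, and was the most even of the 20 across libraries relative to its level. *Epha3*, an ephrin receptor, was at 278 ± 52.4 against 119 CPM. *Olfm3*, a secreted olfactomedin, was at 630 ± 51.3 against 278 CPM. *Slc30a3*, the transporter that fills synaptic vesicles with zinc, was at 47.9 ± 7.65 against 18.0 CPM. *Otof*, known for vesicle release at hair cell synapses, was at 34.7, 68.0, 67.8 and 27.8 CPM, so that its libraries differed more than 2-fold among themselves. The leucine zipper gene *Luzp2* was at 1237 ± 103 against 495 CPM. *Erich2* and *Asb18* were at 37.9 and 27.9 CPM against 12.1 and 9.85.

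The remaining 6 were noncoding or predicted genes. 9630002D21Rik was at 66.2, 99.8, 63.8 and 57.3 CPM against a mean of 4.25 in other neurons, and like *Dmbx1* it ranked 1 among neuronal clusters. Gm36560 (36.2 against 6.74 CPM) and Gm5820 (90.0 against 39.0 CPM) ranked 2 and 3. Over all 20 leading genes, cluster 35 ranked in the first 10 for only 10, and as low as 22 for *Zfhx3*. Gm13415 lies on the plus strand over *Pax8*, which is on the minus strand, and Gm39244 and Lncbate1 lie on the minus strand within *Zfhx3*, which is on the plus strand. As a result, 5 of the 20 leading genes (25%) had another leading gene within 100 kb, against 16 of 6481 other genes (0.247%). These 5 are not separate loci, and the sources used here do not state whether counting used the strand. Other leading genes also overlap further genes. Among them, Gm5820 overlaps *Arhgap26* on its own strand, and *Erich2* overlaps the antisense gene Gad1os, which also overlaps *Gad1*.

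**Figure D2:**
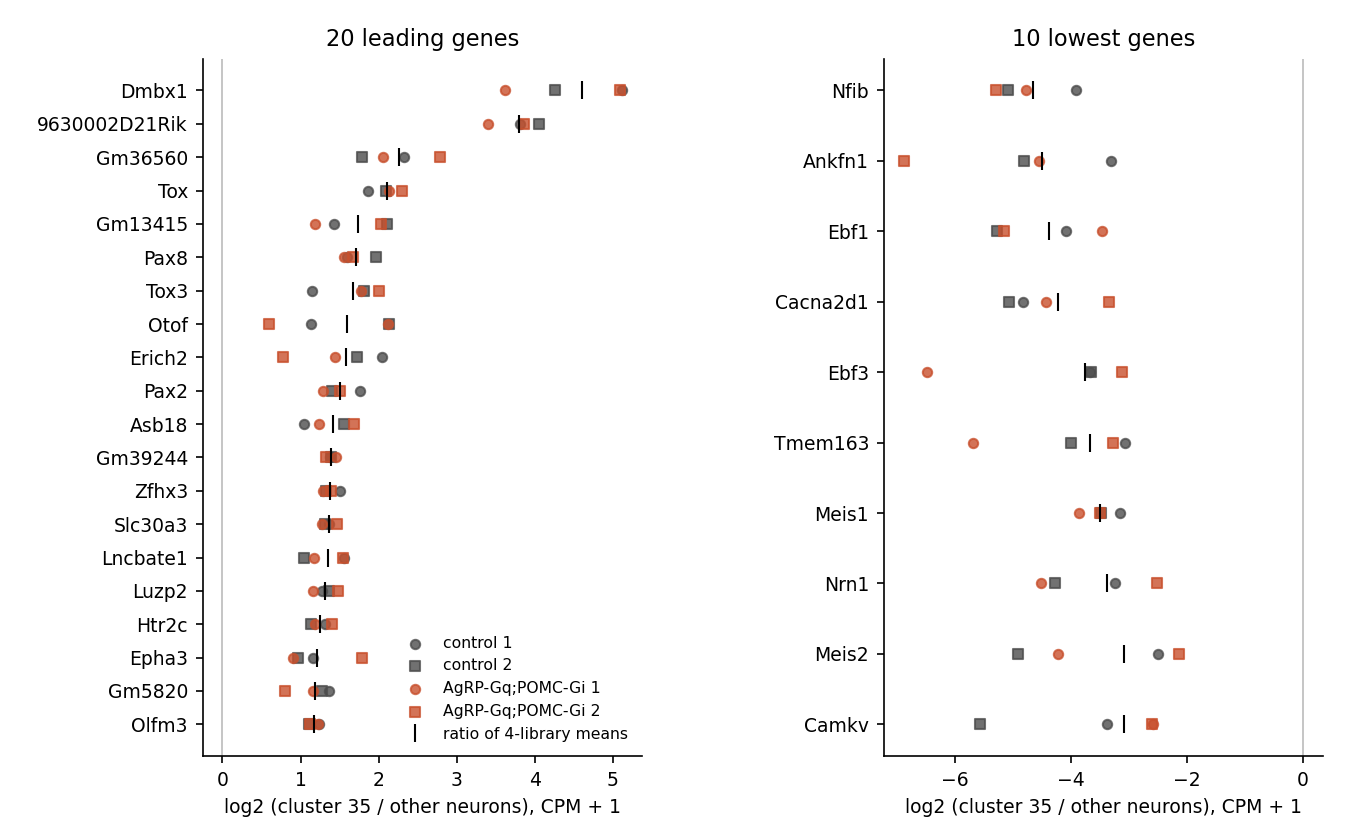
Ratio of cluster 35 to other neurons for the 20 leading genes (left) and the 10 lowest genes (right), on the x axis as log2 of CPM plus 1, with 1 point per library and a bar at the ratio of the 4-library means. All points of the left panel lie above 0 and all points of the right panel on the negative side, with *Dmbx1* at 4.61 and *Nfib* at -4.65.

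The 10 genes with the lowest ratio, among the 5434 genes detected in 25% or more of other neurons, included 5 transcription factors. *Nfib*, a nuclear factor I gene, was at 6.62, 2.27, 2.66 and 1.74 CPM (3.32 ± 2.23) against 107 ± 6.61 in other neurons. The early B cell factor genes *Ebf1* (25.0 ± 12.5 against 539 CPM) and *Ebf3* (6.39 ± 4.98 against 98.6 CPM) were low too. The homeobox genes *Meis1* (17.4 ± 1.98 against 208 CPM) and *Meis2* (41.3 ± 29.9 against 359 CPM) were among the 10. *Meis2* was found in 8.99% of the nuclei, at 64.5, 11.3, 20.0 and 69.5 CPM in the libraries. The other 5 were *Ankfn1*, the calcium channel subunit *Cacna2d1* (26.5 against 516 CPM), the zinc transporter *Tmem163*, the neuritin gene *Nrn1* and *Camkv*. All 10 were lower in 4 of 4 libraries, which their selection favoured. Only 5 of them were detected in 5% or more of the nuclei of cluster 35, and of all 12502 such genes 12.1% were lower in 4 of 4 libraries. Some of the 10 were also low in clusters 33 and 79, the inhibitory clusters most like cluster 35. There *Nrn1* was at 4.45 and 7.34 CPM and *Ebf3* at 10.7 and 11.1 CPM. *Cacna2d1* was at 19.1 CPM in cluster 33 but at 112 CPM in cluster 79. Others were higher in both, with *Meis1* at 114 and 156 CPM and *Meis2* at 530 and 240 CPM.

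The label of an inhibitory neuron held in the data, with markers of GABA and glycine in the same nuclei. *Gad1*, which makes GABA, was at 113, 83.9, 102 and 125 CPM (106 ± 17.4) against 49.5 ± 3.51 in other neurons. *Gad2*, its paralog, was at 190.3, 138, 173 and 188 CPM (172 ± 23.9) against 93.8 ± 2.33. *Slc32a1*, the vesicular transporter of GABA and glycine, was at 54.6, 49.9, 43.9 and 41.7 CPM (47.5 ± 5.86) against 26.7 ± 1.11. *Slc6a5*, the neuronal glycine transporter GlyT2, was at 164, 136, 218 and 177 CPM (174 ± 34.2) against 81.4 ± 5.26. For all 4 genes, the libraries of the cluster lay above those of other neurons without overlap. *Abat*, which breaks GABA down, was at 197 ± 14.3 against 134 CPM.

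*Gad2* was found in 76.7% of the nuclei, *Gad1* in 64.0%, *Slc6a5* in 76.2% and *Slc32a1* in 43.4%. In oligodendrocytes, which should lack them, the shares were 3.03%, 1.86%, 1.39% and 2.82%. Thinned to 2000 UMIs, with shallower nuclei left out, the shares in cluster 35 were 28.7%, 12.2%, 26.1% and 14.4%. Those in oligodendrocytes were 2.20%, 1.48%, 1.06% and 1.93%. A GABA marker was taken as a UMI of *Gad1*, *Gad2* or *Slc32a1*. It was found together with *Slc6a5* in 133 of 189 nuclei (70.4%, exact 95% interval 63.3 to 76.8). As *Slc32a1* also loads glycine, nuclei with only *Slc32a1* and *Slc6a5* are counted here too. A GABA marker without *Slc6a5* was found in 42 nuclei (22.2%), *Slc6a5* without a GABA marker in 11 (5.82%) and neither in 3 (1.59%).

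Markers of glutamate release were rare. *Slc17a6*, the vesicular glutamate transporter of most hindbrain excitatory neurons, was at 13.2, 6.80, 3.99 and 10.4 CPM (8.61 ± 4.05) against 77.3 ± 3.19 in other neurons. It was found in 5.29% of the nuclei, against 3.49% of oligodendrocytes. *Slc17a7* had no UMI in the 189 nuclei, which allows a share of up to 1.59% of nuclei with a UMI. A vesicular glutamate transporter was found in 11 nuclei, and all 11 also held a GABA or glycine marker. *Chat*, which makes acetylcholine, was at 10.1 ± 3.83 against 5.13 CPM, with UMIs in 8.47% of the nuclei, but the vesicular acetylcholine transporter *Slc18a3* had no UMI. *Slc18a2*, the vesicular monoamine transporter, was at 23.2, 13.6, 29.3 and 22.6 CPM (22.2 ± 6.45) against 23.0 in other neurons and was found in 22.8% of the nuclei, against 16.6% of other neurons and 2.93% of oligodendrocytes. *Th*, *Dbh* and *Slc6a4* had no UMI.

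**Figure D3:**
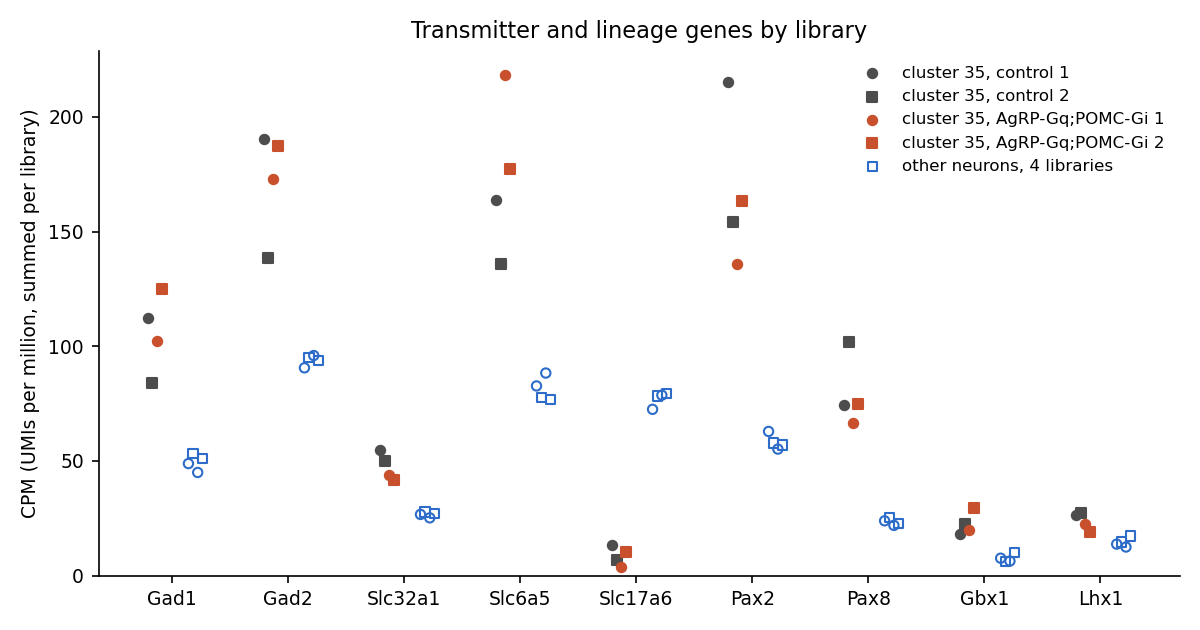
Level of 9 transmitter and lineage genes (y axis, CPM of UMIs summed per library) in the 4 libraries of cluster 35 (filled) and of other neurons (open blue). Libraries of cluster 35 lie above those of other neurons for 8 genes and below them for *Slc17a6*, at 3.99 to 13.2 CPM.

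Of the transcription factors of dorsal inhibitory lineages, *Pax2* and *Pax8* were found in most nuclei. *Pax2* was found in 72.0% of the nuclei and *Pax8* in 56.6%, against 25.8% and 13.3% of other neurons, 158 nuclei (83.6%) held at least 1 of them and 85 (45.0%) held both. *Gbx1*, a homeobox gene of dorsal inhibitory neurons, was at 18.2, 22.7, 19.9 and 29.5 CPM (22.6 ± 4.97) against 7.57. *Lhx1* was at 26.5, 27.2, 22.6 and 19.1 CPM (23.8 ± 3.75) against 14.6. Both genes were above other neurons in every library, but they were found in only 21.2% and 20.6% of the nuclei. *Lhx5* was at 9.71 ± 5.47 against 6.34 CPM, and its libraries overlapped. *Ptf1a* and *Lbx1*, which act early in this lineage, had no UMI in the cluster, and *Ptf1a* had none in other neurons.

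Of the 76 lineage transcription factors listed, 43 had a UMI and 19 were detected in 5% or more of the nuclei. Of these 19, 4 were higher and 10 lower than in other neurons in 4 of 4 libraries, with a median log2 ratio of -0.57, against 13.5%, 12.1% and 0.03 over all 12502 genes. Several listed factors were low. *Lmx1b*, a factor of excitatory and serotonergic neurons, was at 0.414 against 16.3 CPM. *Tfap2b* was at 1.59 against 24.3 CPM and *Foxp2* at 5.98 against 73.0 CPM. Both were higher in cluster 79, an inhibitory cluster like cluster 35, at 42.8 and 98.6 CPM, and *Foxp2* was at 38.3 CPM (5.54 to 67.4) in cluster 33. A library of the cluster needed 3 UMIs, or 3.99 to 6.80 CPM, to pass its floor. Genes of the Hox clusters mark position along the body axis. Of 10 Hox genes detected in 5% or more of the nuclei, 0 were higher and 1 was lower in 4 of 4 libraries, against 13.5% and 12.1% of all 12502 genes, with *Hoxb3* at 47.8 ± 4.46 against 49.5 CPM and *Hoxc4* at 48.2 ± 8.72 against 41.5 CPM.

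Receptors of monoamines and acetylcholine differed in both directions. Of 13 monoamine and acetylcholine receptors detected in 5% or more of the nuclei, 5 were higher and 3 lower in 4 of 4 libraries, against 13.5% and 12.1% of all 12502 genes. *Htr4* was at 111, 129, 139.7 and 139 CPM (130 ± 13.4) against 60.4, and *Htr1f* at 166, 188, 180 and 167 CPM (175 ± 10.9) against 116. Both did not overlap with other neurons, as *Htr2c* above, but the clusters most like cluster 35 reached these levels, with *Htr1f* at 273 CPM in cluster 33 and *Htr4* at 164 CPM in cluster 79. *Htr7* was lower at 49.4 ± 3.65 against 64.8 CPM. The muscarinic receptor gene *Chrm2* was at 302 ± 22.0 against 260 CPM, whereas *Chrm3* was at 49.6, 61.2, 37.2 and 53.8 CPM (50.5 ± 10.0) against 359. *Chrm3* was found in 19.0% of the nuclei and in 51.4% of other neurons.

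Most GABA-A receptor subunits were lower in the cluster. Of 11 detected in 5% or more of the nuclei, 0 were higher and 7 lower in 4 of 4 libraries, with a median log2 ratio of -0.62, where 13.5% of all 12502 genes were higher and 12.1% lower with a median of 0.03. *Gabra2* was at 63.9 ± 18.6 against 149 CPM and *Gabrb2* at 79.7 ± 18.6 against 156 CPM. By contrast, *Gabrb1* was at 584 ± 54.2 against 629 CPM, within the spread of the libraries. Of the glycine receptor subunits, *Glra3* was at 184 ± 25.7 against 110.1 CPM and *Glra1* at 244 ± 34.6 against 229 CPM. Of 6 metabotropic glutamate receptors, 1 was higher (*Grm4*, 28.4 ± 8.88 against 17.8 CPM) and 5 were lower, among them *Grm8* (272 ± 17.4 against 495 CPM). Of 16 ionotropic glutamate receptors, 5 were higher and 5 lower. The kainate receptor subunit *Grik3* was at 169 ± 18.7 against 74.5 CPM and the AMPA receptor subunit *Gria1* at 588 ± 55.5 against 390.5 CPM, while *Gria2*, which limits calcium entry through AMPA receptors, was at 937 ± 37.6 against 1242 CPM.

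Most receptors through which AgRP, POMC products and other feeding signals act were rarely detected. Of 25 listed, 18 had a UMI and 6 were detected in 5% or more of the nuclei, of which 3 were higher and 0 lower in 4 of 4 libraries (13.5% and 12.1% over all 12502 genes). The orexin receptor gene *Hcrtr2* was at 91.0, 88.4, 90.5 and 55.6 CPM (81.4 ± 17.2) against 50.8, and *Hcrtr1* at 8.46 ± 4.97 against 3.21. The insulin receptor gene *Insr* was at 144 ± 13.0 against 123 CPM. *Mc4r*, the melanocortin receptor that AgRP and POMC products share, was found in 8 nuclei (4.23%) at 4.96, 4.53, 1.33 and 6.95 CPM, against 2.18 CPM in other neurons. The leptin receptor gene *Lepr* was at 13.3 ± 5.42 against 17.8 CPM. *Mc3r* and *Ghsr* had no UMI. *Agrp* itself was at 91.0, 102, 85.1 and 104 CPM in cluster 35 and at 83.6 to 91.4 CPM in other neurons. The annotated *Agrp* gene spans 70696 bp. It overlaps Gm45855 and Gm5914 on its own strand and *Ctcf* and *Ripor1* on the opposite strand, so that these values are uncertain.

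Other signalling genes gave a mixed picture. The tachykinin receptor gene *Tacr3* was at 21.5 ± 5.16 against 10.6 CPM and the neurotensin receptor gene *Ntsr1* at 6.89 ± 3.67 against 2.77 CPM. The opioid receptor gene *Oprm1* was at 71.4 ± 13.2 against 107 CPM. Of 27 neuropeptide precursors 20 had a UMI and 5 were detected in 5% or more of the nuclei, with 1 higher and 1 lower in 4 of 4 libraries, against 13.5% and 12.1% over all 12502 genes. The enkephalin gene *Penk* was at 25.4 ± 11.7 against 43.2 CPM and the somatostatin gene *Sst* at 17.7 ± 6.03 against 30.4 CPM. Of 35 voltage-gated channel genes and their partners 7 were higher and 16 lower (20% and 45.7%), against 13.5% and 12.1% over all genes. *Kcnip4* was at 6139.6 ± 410 against 4088 CPM, and *Kcnh8* at 7.11 ± 1.63 against 73.7 CPM. The calbindin gene *Calb1* was at 4.35 ± 4.68 against 25.2 CPM.

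Nuclei with and without a *Dmbx1* UMI were compared as a description, since the split uses a measured value and depth. The 61 nuclei with a UMI had a median of 13624 UMIs and the 128 without had 10439. *Htr2c* was at 2231 CPM (2170.0 to 2273 over libraries) in nuclei with *Dmbx1* and at 1368 CPM (1253 to 1602) in those without. *Tox* was at 646 CPM (585 to 702) against 467 CPM (363 to 525), and *Tox3* at 130.3 CPM (106 to 152) against 86.2 CPM (61.4 to 105). These ranges did not overlap, but those of *Tox3* lay close, at 106.3 against 105.4 CPM. *Cntnap5b* was at 1069 CPM (910.5 to 1275) against 716 CPM (508 to 911.3), with ranges that overlapped slightly. Of the inhibitory markers, *Gad1* had ranges that lay close without overlap, at 135 CPM (106.3 to 176) against 86.8 CPM (53.2 to 105.5). *Gad2* was at 176 against 179 CPM, *Slc6a5* at 188 against 160 CPM and *Pax2* at 151 against 179 CPM, each with overlapping ranges. The share of all genes without overlap in this split was not determined, so these genes are not shown to be unusual. Even without *Dmbx1* UMIs, nuclei had 68.4 CPM of 9630002D21Rik and 467 CPM of *Tox*, against 4.25 and 125 CPM in other neurons.

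The most variable genes among the nuclei were looked for after thinning 188 of them to 2000 UMIs, and those named here were chosen after their values were seen. The variance divided by the mean, which is 1 for counting error alone, had a median of 1.02 over 6632 genes. Beyond counting error this ratio tends to rise with the mean, so its order partly follows abundance. Nuclei of the 4 libraries were pooled, so differences between libraries enter it, and *Ttr*, which differed between libraries, had 3.03. The ratio was highest for the nuclear RNA *Malat1*, at 14.99 with UMIs in all 188 nuclei and a mean of 139.8 UMIs. It was 8.22 for *Kcnip4*, found in 173 nuclei, and 6.65 for *Gpc5*, found in 91 nuclei with up to 23 UMIs. *Adarb2*, found in 76 nuclei, had 4.66. *Meis2*, with a ratio of 3.31, was found in 8 thinned nuclei with up to 6 UMIs, and *Il1rapl2*, with 3.40, in 28 with up to 7. *Htr2c*, found in 142, had 3.07.

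The clusters most like cluster 35 over 9699 genes were cluster 33: Il1rapl2/Slc6a5 (Pearson r = 0.966, 197 nuclei), cluster 79: Kcnmb2/Slc6a5 (0.959, 115 nuclei) and cluster 30: Zfp804b/Npas1 (0.956, 219 nuclei). These are correlations across genes, which share libraries and depth. Clusters 33 and 79 shared the inhibitory profile. *Slc6a5* was at 221 and 245 CPM there, *Slc32a1* at 48.1 and 51.3 CPM and *Pax2* at 145 and 138 CPM, and all these ranges overlapped those of cluster 35. Cluster 30 held *Slc17a6* at 135 CPM and *Pax2* at 22.5 CPM.

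Of 6502 genes, 58 (0.892%) were higher in all 4 libraries of cluster 35 than in any library of these 3 clusters, ordered here by the ratio to the highest of the 3. *Dmbx1* came first with 40.4 against 2.40 CPM, then 9630002D21Rik with 71.8 against 7.13 CPM. *Tox3* (101 against 21.2 CPM), *Tox* (539 against 135 CPM) and *Otof* (49.6 against 17.3 CPM) followed. The adhesion gene *Kirrel3* was at 1343 against 533 CPM, *Epha3* at 278 against 113 CPM, *Grik3* at 169 against 73.2 CPM and *Gad1* at 106 against 48.6 CPM. *Cntnap5b* was among the 58, with 854 against 588 CPM. *Gbx1*, found in too few nuclei for that comparison, was at 22.6 CPM in cluster 35 and at 2.25, 2.99 and 2.28 CPM in clusters 33, 79 and 30. Of the 20 leading genes, only *Dmbx1*, 9630002D21Rik, *Tox3*, *Tox*, *Otof*, *Epha3* and *Luzp2* were among the 58. The others did not separate the cluster from all 3. *Zfhx3* was at 1240.0 CPM in cluster 79 against 454 in cluster 33. *Htr2c* reached 1701 CPM in a library of cluster 33, within the range of cluster 35 (1671 to 1768 CPM). Both clusters that share the name *Cntnap5b*, 70 and 83, differed in some other genes. In cluster 70, *Tfap2b* was at 352 CPM, *Slc17a6* at 162 CPM and *Slc6a5* at 4.94 CPM. Cluster 83 shared the inhibitory profile, with *Slc6a5* at 146 CPM, *Gad2* at 244 CPM and *Slc17a6* at 7.11 CPM. *Slc30a3* and *Asb18* were at 48.2 and 31.3 CPM there, with ranges that overlapped those of cluster 35. It differed in *Pax2*, at 81.7 CPM, and had no *Gbx1* UMI.

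Both groups received CNO, and whether AgRP-Gq;POMC-Gi mice differed from controls in these neurons was asked by comparing the groups within cluster 35, with UMIs summed per library. No gene of 12502 passed an adjusted p of 0.05 in edgeR's quasi-likelihood test with Benjamini-Hochberg adjustment (percentage called, 0). At an unadjusted p under 0.05 there were 612 genes (4.9%), 322 of them higher in AgRP-Gq;POMC-Gi, and the median log2 fold change was -0.003. DESeq2 called 0 genes as well, with 41 at an unadjusted p under 0.05. The counts rested on single libraries, as leaving out AgRP-Gq;POMC-Gi replicate 2 gave 51 calls, AgRP-Gq;POMC-Gi replicate 1 gave 7, control replicate 1 gave 5 and control replicate 2 gave 0, with the lone library assumed to vary like the other group.

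*Pdzd2*, which encodes a protein with many PDZ domains, had the smallest adjusted p. It was at 23.2, 13.6, 90.5 and 59.0 CPM in cluster 35, with 14, 6, 68 and 34 UMIs, and at 127, 112, 112 and 151 CPM in other neurons. Both AgRP-Gq;POMC-Gi libraries were above both control libraries and below all libraries of other neurons. Its log2 fold change was 2.06 (SE 0.36) with an adjusted p of 0.0587 (edgeR). It passed with the replicate block (adjusted p = 0.0376) and without the filter on low counts (3.96e-05), but not with DESeq2 (0.9999) or without TMM factors (0.189), and leaving out 1 library gave 4.33e-07 without AgRP-Gq;POMC-Gi replicate 2 to 0.993 without control replicate 2. Of the 68 UMIs in AgRP-Gq;POMC-Gi replicate 1, 25 lay in 1 nucleus. Without the nuclei that held most *Pdzd2* and *Ccdc163* the log2 fold change was 1.66 with an edgeR adjusted p of 0.555. This alternative was chosen after seeing the data. The test of the difference between cluster 35 and other neurons gave a log2 value of 1.93 (SE 0.38, adjusted p = 0.249). In that test 0 of 12502 genes passed (percentage called, 0), and 594 (4.75%) had an unadjusted p under 0.05. With that test *March1* had the same adjusted p, at -0.71 (SE 0.14). With the replicate block both passed, at adjusted p of 1.26e-05 for *Pdzd2* and 0.00952 for *March1*, and without the filter at 4.05e-05 and 0.00496.

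The other genes with the smallest unadjusted p all had an adjusted p of 0.979. Single libraries moved these values. Without AgRP-Gq;POMC-Gi replicate 2, *Cntn6* (edgeR adjusted p = 0.00116), *Hist1h2be* (0.0160), *Ccdc163* (0.0256) and *Hsd11b2* (0.0287) passed, and without control replicate 1 *Ccdc163* did (3.97e-05). Omitting AgRP-Gq;POMC-Gi replicate 2 also gave the largest log2 fold changes of *Hist1h2be* (-3.31) and *Cntn6* (1.05) among the 4 omissions, and omitting AgRP-Gq;POMC-Gi replicate 1 the smallest (-1.54 and 0.44). *Hsd11b2*, which inactivates corticosterone, had 0, 0, 10 and 8 UMIs. The AgRP-Gq;POMC-Gi group was at least 4.72-fold higher than the floor of 3 UMIs over the control group. In other neurons it was at 0.609, 0.408, 8.10 and 8.79 CPM, so the same libraries were low and high there. *Pycard*, an inflammasome adaptor, had 10, 6, 31 and 28 UMIs (log2 fold change 1.60, SE 0.39) and the adhesion gene *Cntn6* had 81, 72, 209 and 115 (0.78, SE 0.21). The circadian repressor *Cry1* had 1, 1, 8 and 14 UMIs. In the other direction, the histone gene *Hist1h2be* had 15, 17, 2 and 6 UMIs (-2.24, SE 0.55), *H2afy2* had 19, 13, 6 and 5 (-1.78, SE 0.48), *Fbxo46* had 5, 12, 1 and 1 and *Rab12* had 64, 33, 36 and 23 (-0.97, SE 0.27). *Ccdc163* had 5, 20, 1 and 1 UMIs, of which 17 lay in 1 nucleus of control replicate 2. The CPM of the groups did not overlap for 33.6% of all 12502 genes.

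*Dmbx1* itself was at 53.0 ± 14.0 CPM in the control libraries and 27.7 ± 14.8 CPM in those of AgRP-Gq;POMC-Gi mice (n = 2 each, SD). The groups did not overlap, but the difference did not pass the test (log2 fold change -0.95, SE 0.35, edgeR adjusted p = 0.979). Leaving out 1 library moved it from -0.50 without AgRP-Gq;POMC-Gi replicate 1 to -1.51 without AgRP-Gq;POMC-Gi replicate 2 (edgeR adjusted p = 0.995 and 0.105), and it was -0.62 without control replicate 1. A *Dmbx1* UMI was found in 20 of 46, 12 of 37, 13 of 59 and 16 of 47 nuclei. *Cntnap5b* was at 774 ± 92.4 and 935 ± 102 CPM, with a log2 fold change of 0.35 (SE 0.17, edgeR adjusted p = 0.979). For *Dmbx1* the change in cluster 35 minus the change in other neurons was 0.72 (SE 0.66, edgeR adjusted p = 0.998). The point estimate was thus of a larger fall in other neurons, where the mean level was 0.692 CPM.

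Immediate early genes are switched on by neurons within minutes of strong activity. Of the 10 that the study used, 9 had a UMI and 6 could be tested, of which 0 passed. All 6 had a positive log2 fold change, from 0.37 to 1.12 with a median of 0.48, and an adjusted p of at least 0.985. The shared direction rested on control replicate 1, without which *Junb* was at -0.37, 1700016P03Rik at -0.43 and *Homer1* at 0.02. With all libraries, *Homer1* had 20, 24, 42 and 28 UMIs in 79 of 189 nuclei (0.38, SE 0.31) and *Nr4a1* had 4, 2, 8 and 8 (1.12, SE 0.67). *Fos* had 2, 1, 1 and 1 UMIs, and *Gem* had none in 189 nuclei. Of the 6 tested, 0 were higher and 4 lower than in other neurons in 4 of 4 libraries, where 12.1% of all 12502 genes were lower. These values do not show that there was no change.

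Receptor and transmitter genes gave the same count. Of all 12502 genes, 6211 had a positive and 6291 a negative log2 fold change. Of 11 GABA-A receptor subunits 0 passed, 8 had a positive log2 fold change and the median was 0.24. Of 13 contactins and contactin-associated proteins 0 passed and 10 were positive, with a median of 0.20. *Slc6a5* was at 150 ± 19.6 and 198 ± 29.0 CPM (0.47, SE 0.20, edgeR adjusted p = 0.979), *Gad1* at 98.2 ± 20.2 and 114 ± 16.0 CPM (0.25, SE 0.21), and *Htr2c* at 1690.2 ± 27.1 and 1730.4 ± 52.9 CPM (0.11, SE 0.15). Of the 20 leading genes 0 passed and 11 were positive, with a median of 0.04. Of 6 glucocorticoid-induced genes 0 passed and 6 were negative, with a median of -0.30. The summed level of the 8 listed was also lower in AgRP-Gq;POMC-Gi libraries of other neurons (193 to 196 against 233 to 254 CPM) and of oligodendrocytes (1030.3 to 1299 against 2037 to 2333 CPM). Of 19 lineage transcription factors 0 passed, with a median of 0.03.

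**Figure D4:**
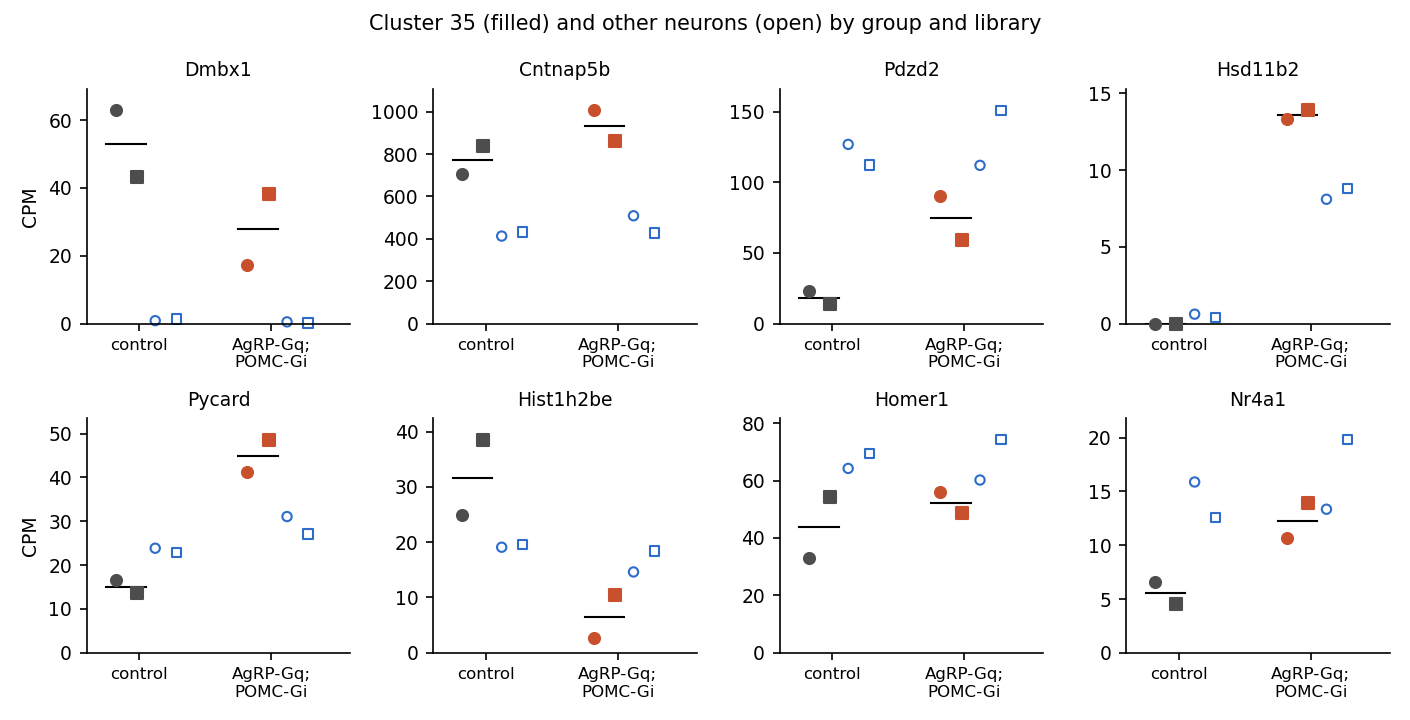
Level of 8 genes (y axis, CPM) in the control and AgRP-Gq;POMC-Gi libraries of cluster 35 (filled, circle for replicate 1 and square for replicate 2, line at the group mean) and of other neurons (open blue). *Pdzd2* is at 13.6 and 23.2 CPM in the control and at 59.0 and 90.5 CPM in the AgRP-Gq;POMC-Gi libraries of cluster 35, against 112 to 151 CPM in other neurons, and *Hsd11b2* separates the groups in both sets of neurons.

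The share of cluster 35 among neurons was 1.86%, 1.35%, 1.60% and 1.29% in the 4 libraries. It was 1.61% ± 0.361 in controls and 1.44% ± 0.215 in AgRP-Gq;POMC-Gi mice (n = 2 each, SD), a difference of -0.163 percentage points, and the groups overlapped. The exact two-sided permutation test gave p = 0.667, where 2 against 2 libraries cannot go below 0.333. In edgeR's test over 120 neuronal clusters the log2 fold change was -0.15 (SE 0.52, adjusted p = 0.913), and 0 clusters passed (percentage called, 0) with 3 at an unadjusted p under 0.05. Of all nuclei, cluster 35 made up 0.473%, 0.368%, 0.607% and 0.472%, while neurons made up 25.4%, 27.2%, 38.0% and 36.5%. With all nuclei as the denominator the log2 fold change was 0.36 (edgeR adjusted p = 0.869). With neurons as the denominator but without control replicate 1 it was 0.095. The direction thus depended on the denominator and on that library.

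Markers of other cell types were summed in each library. The summed level of 6 oligodendrocyte markers was 132 to 217 CPM in control and 109 to 158 CPM in AgRP-Gq;POMC-Gi libraries, against 252 to 311 and 147 to 185 CPM in other neurons. In oligodendrocytes themselves it was above 16310 CPM. Markers of oligodendrocyte precursor cells summed to 49.6, 38.5, 34.6 and 34.7 CPM, above the 33.4, 28.3, 26.6 and 27.0 CPM of other neurons in each library. Of these 5 markers only 1, *Vcan*, was detected in 5% or more of the nuclei, with a log2 ratio of 0.64. Astrocyte markers summed to 22.7 to 26.5 and 23.9 to 31.3 CPM, below the 47.9 to 86.8 CPM of other neurons. Vascular markers summed to 4.96, 13.6, 31.9 and 1.74 CPM, against 8.01 to 16.1 CPM. Immune markers summed to 113 to 161 and 120 to 132 CPM, against 141 to 156 CPM in other neurons. They were mostly *P2ry12*, a gene inside the oppositely oriented *Med12l*. Ependymal and choroid plexus markers summed to 9.93 to 977 and 7.98 to 559 CPM. In replicate 2 of both groups this was nearly all *Ttr*, whereas *Foxj1* was at 9.93 and 5.32 CPM in replicate 1, and *Ccdc153* was at 0. Their part in the results was not tested.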

How the data were processed

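Nuclei were isolated from hindbrain tissue, sorted by flow cytometry and sequenced as 10x 3′ libraries by the authors. The deposited counts are UMIs per gene and nucleus. The submitters' processing notes name Cell Ranger 7.0.0, Seurat 4.3.0 and GRCm38/mm10. The authors' filter required 800 UMIs, 500 genes and no more than 10% of mitochondrial UMIs. Their quality control calls, cell types and clusters were used as deposited, in which doublets had been called at an assumed rate of 0.02. The authors left immediate early genes out of the genes used to cluster. Deposited per-nucleus activity scores and the matrix that joins the libraries were not used.

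UMIs were summed per library over the nuclei of cluster 35 and over all other neurons. Groups were compared with edgeR 4.0.16 (quasi-likelihood, TMM) in R 4.3.3 for genes detected in 5% or more of the nuclei, with adjustment over all genes tested and a threshold of 0.05. DESeq2 1.42.0 was an alternative. The mixed model of the study's methods was not run. Summed counts per library were 604318, 441031, 751788 and 575890 UMIs, so 3 UMIs were 3.99 to 6.80 CPM. Leading genes, genes with the smallest p, the early genes of the study and listed genes were named by rule. The members and lists were chosen with earlier results of these data known. Gene positions are from GENCODE M21, which matched 32235 of 32285 identifiers.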

Additional observations from a re-analysis of the deposited data

How the results depend on the processing

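The count of genes that differed between groups in cluster 35 was 0, as with DESeq2, a stricter filter, no TMM factors and without the 2 nuclei with a shared barcode (an alternative chosen after seeing the data). Without the filter on low counts it was 4 of 19365 genes (*Ccdc163*, *Hsd11b2*, *Malat1* and *Pdzd2*). With the replicate block it was 1 (*Pdzd2*, adjusted p = 0.0376). Leaving out 1 library gave 0 to 51 calls, including *Xist*, *Tsix* and *Uty* without AgRP-Gq;POMC-Gi replicate 1. The numbers were not taken to pair the samples, since the labels name nothing shared. Deviations of same-numbered libraries correlated at -0.013 across genes. Counting error in genes with few UMIs weakens such a correlation, so it cannot decide whether same-numbered libraries share a batch. *Ttr* went with the number, and a shared batch was not tested. For the difference from other neurons the count was 0, with 2 (*March1* and *Pdzd2*) both without the filter and with the replicate block, and 0 to 6 leaving out 1 library (6 without control replicate 1, 3 without control replicate 2, 2 without AgRP-Gq;POMC-Gi replicate 2). For the share among neurons the log2 fold change turned to 0.36 over all nuclei, and leaving out 1 library gave -0.37 to 0.095, positive without control replicate 1. Of 18 named genes, 117 of 117 values in other settings and 70 of 72 values with 1 library left out kept their direction. The 18 include the 10 genes with the smallest p in the main fit, and the other settings refit the same counts. Their selection thus favoured a kept direction. With 1 library left out, *Junb* ran from -0.37 to 2.26 and 1700016P03Rik from -0.43 to 1.56, both negative without control replicate 1. *Dmbx1* ranged from 32.9 to 48.1 CPM and *Cntnap5b* from 753 to 903 CPM across settings. Without TMM factors the median log2 fold change was -0.07, so small changes are relative to that shift. Depth limits genes under about 4 to 7 CPM in a library. The cause of these shifts was not tested.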

Other observations

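*Hsd11b2*, which ranked by p only after *Pdzd2* in cluster 35, lies at GRCm38 chr8:105518755-105523988 on the plus strand, 42.7 kb from the annotated *Agrp* gene. It was found in 9 of 59 and 6 of 47 nuclei of the AgRP-Gq;POMC-Gi libraries and in 0 of 46 and 0 of 37 nuclei of the control libraries, where 3 UMIs would be 4.96 and 6.80 CPM. Other neurons of the same libraries were at 8.10 and 8.79 CPM against 0.609 and 0.408 CPM, so the separation of the groups was not limited to cluster 35.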
